A study of Homo sapiens with 12 samples.

Results

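The distal end of the long arm of chromosome 9, here called distal 9q34, was described through its CCGG sites in 2 clear cell renal cell carcinoma lines treated with ascorbic acid, in a study of how that treatment bears on their cytosine methylation. Cytogenetic band limits were not checked, so sites near the proximal edge may lie outside band 9q34. All CCGG sites of chromosome 9 above position 130000000 (hg19) were taken. These were 19264 sites with a tag in at least 1 of 12 libraries, out of 996035 such sites on chromosomes 1 to 22 and X, or 1.93%. By their running numbers in the files, 28559 reference CCGG sites lie between the first and the last listed site, so 67.5% of them were listed. The region was chosen because it appeared raised with ascorbic acid in the line labelled 769, so every value of 769 with and without ascorbic acid below is a description, and no p-value of it is used. Over the region as a whole the difference was small. The relative HpaII signal defined below was 0.823 and 0.806 in the AA samples of 769, against 0.793 in their control.

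HELP-tagging reads cytosine modification with a pair of enzymes that recognise the same sequence, CCGG. Methylcytosine or hydroxymethylcytosine at the inner C blocks HpaII and leaves MspI free to cut, so HpaII tags mark unmodified sites and MspI tags report how well a site is recovered. Ascorbic acid is a cofactor of the TET enzymes, which oxidise methylcytosine to hydroxymethylcytosine, and HpaII does not tell these modifications apart. Band 9q34 is a gene-rich, CpG-rich chromosome end that carries, among others, the tyrosine kinase gene ABL1, the retinoid receptor gene RXRA and the collagen gene COL5A1. In most human cells dense clusters of CpG at promoters lack methylation, while scattered CpGs in and between genes carry it.

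The groups were 769 cells treated with AA (ascorbic acid, per the series title; 2 DNA samples, numbered 1 and 2), 769 control (1), 786 cells treated with AA (2) and 786 control (1). From every DNA sample 1 library was made with HpaII and 1 with MspI. The labels say that both are ccRCC cell lines and do not say whether AA samples 1 and 2 are separate cultures, doses or times, so every SD and p-value measures only the spread between these samples, which may be technical. In the region, the HpaII libraries held 133959 and 53287 tags in 769 AA against 105884 in 769 control, and 232178 and 96300 tags in 786 AA against 4147 in 786 control. The 786 control HpaII library was the shallowest, with 189704 tags in all, and touches every comparison within 786. The MspI libraries held 86204 to 302304 tags in the region. All signals below are a library's HpaII share of nuclear tags over the MspI share of the same DNA sample. A value of 1 is the genome-wide mean, and a change over the whole genome would not show. Intervals and floors cover counting error only, since the amplified tags carry no molecular identifier.

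Promoters were named by sequence, because the coordinates of the files are of hg19 and the gene table at hand is of another build. Of 1584 RefSeq promoters on chromosome 9 (GRCh38.p14; 300 bases each), 398 hold at least 4 CCGG sites, as do 23.7% of all 35116 RefSeq promoters. The spacing of those sites was matched to consecutive site numbers in the files. This placed 201 promoters at 1 place on chromosome 9, and 82 of these in the region, 78 of them distinct. None lay out of the RefSeq order. Of the 78, 35 had 10 or more MspI tags in every one of the 6 DNA samples. The 5 sequences here are the 4 promoters with the highest AA signal relative to control in 769, and LRSAM1, with the lowest. Each shows the 250 bases before the start of the gene, 5′ to 3′ along the gene, with CCGG in capitals. The capitals mark where both enzymes can cut, and CCGG reads the same on both strands. GPSM1 (plus strand; its sites lie at 139249014 to 139249252) binds G protein alpha subunits, TOR2A (minus; 130497552 to 130497750) is a torsin ATPase, and LRRC8A (plus; 131644260 to 131644448) is a subunit of the volume-regulated anion channel. ABL1 (plus; 133710402 to 133710658) is a tyrosine kinase, and LRSAM1 (plus; 130213539 to 130213757) is a ubiquitin ligase whose gene shares CCGG sites of its promoter with the ribosomal protein gene RPL12. All positions of sites are printed as the files give them.
GPSM1: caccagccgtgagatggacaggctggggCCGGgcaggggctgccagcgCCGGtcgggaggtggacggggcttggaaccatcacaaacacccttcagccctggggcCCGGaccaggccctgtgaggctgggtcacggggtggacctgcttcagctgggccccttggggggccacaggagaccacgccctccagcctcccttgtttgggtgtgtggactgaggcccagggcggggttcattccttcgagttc
TOR2A: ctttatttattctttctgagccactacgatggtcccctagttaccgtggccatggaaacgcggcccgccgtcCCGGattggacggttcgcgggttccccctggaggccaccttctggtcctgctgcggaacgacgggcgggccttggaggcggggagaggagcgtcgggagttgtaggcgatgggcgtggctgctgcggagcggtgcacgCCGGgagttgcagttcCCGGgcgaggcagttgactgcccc
LRRC8A: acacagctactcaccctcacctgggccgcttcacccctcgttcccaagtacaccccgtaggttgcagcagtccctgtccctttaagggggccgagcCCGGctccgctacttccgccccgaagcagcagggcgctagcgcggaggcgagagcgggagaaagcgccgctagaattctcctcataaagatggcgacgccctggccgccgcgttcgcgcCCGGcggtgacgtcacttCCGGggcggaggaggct
ABL1: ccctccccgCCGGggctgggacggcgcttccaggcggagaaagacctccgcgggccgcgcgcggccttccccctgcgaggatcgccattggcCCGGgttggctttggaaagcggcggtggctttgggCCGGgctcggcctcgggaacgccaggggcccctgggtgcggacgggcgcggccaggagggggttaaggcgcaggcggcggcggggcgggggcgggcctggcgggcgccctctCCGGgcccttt
LRSAM1: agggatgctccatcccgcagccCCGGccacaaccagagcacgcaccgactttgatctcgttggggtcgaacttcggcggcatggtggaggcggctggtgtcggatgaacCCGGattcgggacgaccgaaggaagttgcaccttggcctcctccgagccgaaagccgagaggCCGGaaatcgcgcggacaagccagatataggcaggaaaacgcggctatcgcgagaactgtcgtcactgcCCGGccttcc

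Over all its sites together, the region had less HpaII signal than the genome mean in each of the 6 samples. In 769 the mean of the AA samples was 0.815 ± 0.0121 (SD, n = 2), which is 1.03 times the control value of 0.793. That direction turned at the sites that reached 10 MspI tags in all 6 DNA samples, where the fold was 0.776. With tags scaled to mitochondrial ones the fold was 0.127. That scaling multiplies every region of a library by the same factor, so this value is not a turn of the region relative to the genome. Mitochondrial tags ran from 21844 to 286203 in the MspI libraries of 769. In 786 the signal was 0.816 and 0.854 with AA, against 0.853 in control, a fold of 0.979, which became 1.28 at the sites that reached 10 MspI tags. The 786 control lay between its AA samples, and an exact two-sided permutation test gave p = 1, where 3 arrangements allow no p under 0.333. The rest of chromosome 9, with 29578 listed sites, had 1.13 and 1.10 in 769 AA against 1.20 in 769 control, and 1.03 and 1.08 in 786 AA against 0.971 in 786 control. The region therefore stood below the remainder of its chromosome in all 6 samples, by the values alone.

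The small difference of the whole region in 769 was the sum of opposite differences by CCGG density. Sites were classed by how many reference CCGG sites share their 1 kb window. At the sparsest sites, with 1 to 2 in the window, the signal was 0.258 and 0.227 in 769 AA, against 0.0949 in 769 control. At 3 to 7 sites it was 0.461 and 0.371 with AA, against 0.267 in control. At 8 to 15 sites the values were 1.48 and 1.42 with AA, against 1.53. At the densest sites, with 16 or more, as in CpG islands, they were 2.49 and 2.42 with AA, against 3.74. In 769 both AA samples therefore lay above the control at sparse sites and below it at dense sites. Since the signals are shares, a gain at sparse sites by itself lowers the share at dense ones. Whether HpaII cut dense sites less with AA was not tested. The ratio of sparse to dense signal was 3.89 times higher with AA than in control in the region, and 3.21 times over all nuclear sites, so the pattern was not particular to the region by these values.

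In 786 the sparse classes differed less. Signals at 1 to 2 sites were 0.374 and 0.383 with AA against 0.340 in control, and at 3 to 7 sites 0.554 and 0.566 against 0.492. At 8 to 15 sites they were 1.28 and 1.33 with AA, against 1.18. At 16 or more sites they were 2.35 and 2.57 with AA, against 3.69. Without 1 bin near the telomere, described below, the densest class had 2.36 and 2.61 with AA against 3.07 in control, and the sparse-to-dense fold went down to 1.38, against 1.67 with that bin. Over all nuclear sites it was 1.24. The region held fewer sites of the sparsest class (21.0% of its listed sites, against 40.3% of all nuclear sites) and more of the next class (51.3% against 35.4%).

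**Figure D1:**
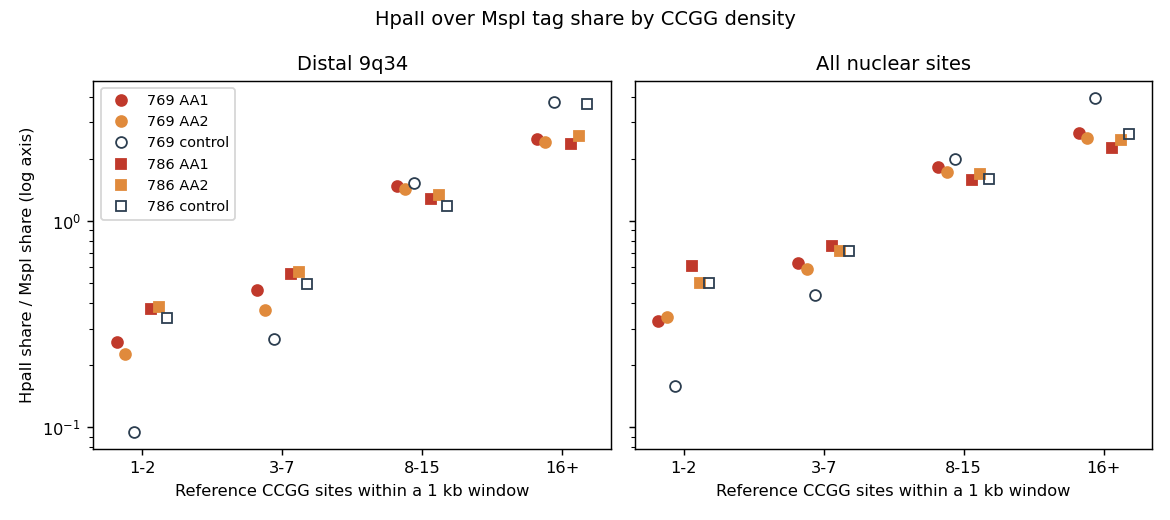
Relative HpaII signal (HpaII share over MspI share, log axis) by how many reference CCGG sites share a 1 kb window, in distal 9q34 (left) and over all nuclear sites (right), 1 point per DNA sample. In 769 (circles) the AA samples lie above the control at 1 to 2 sites, with 0.258 and 0.227 against 0.0949 in the region, and below it at 16 or more, with 2.49 and 2.42 against 3.74.

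More sites were reached by HpaII in the AA samples. Among the 610 sites of the region that reached 10 MspI tags in all 6 DNA samples, 61.5% and 29.8% had an HpaII tag in 769 AA, against 20.7% in 769 control. In 786 the shares were 48.5% and 47.4% with AA, against 15.6% in control. With the HpaII libraries thinned to the size of the smallest, they were 27.2% and 18.7% in 769 AA against 11.8% in 769 control, and 33.9% and 30.8% in 786 AA against 15.6% in 786 control. Over all 17290 such sites of the genome the thinned shares were 31.4% and 22.4% with AA against 14.1% in control in 769, and 34.9% and 33.9% against 15.96% in 786. Both lines thus showed a larger share of sites with a tag in each AA sample than in control, in the region as elsewhere, also after the HpaII libraries were thinned to one size. Thinning evens out tags and not distinct molecules. In all, the MspI libraries of 769 listed 556245 and 333336 sites from 5361577 and 3785890 tags with AA, against 419020 from 12442031 in control. Those of 786 listed 314244 and 613191 with AA, against 535013 in control. A part of such library differences in these shares was not tested.

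Along the region the signal was far from even. Over its 111 bins of 100 kb it ran up to 2.23 and 2.60 in the AA samples of 769, against 4.88 in control, and to 2.70 and 2.94 in those of 786, against 6.06 in control. Signals under 0.1 were found in 4 and 8 bins of the 769 AA samples against 17 bins of the control, and in 4 and 3 bins of the 786 AA samples against 12 of the control. Bins with no HpaII tag at all numbered 1 and 4 with AA against 6 in control in 769, and 1 and 0 against 11 in 786. The 786 control had only 4147 HpaII tags over these 111 bins. These counts were not made at one depth, so those of 786 are not read as a difference with AA. By 1 Mb steps, the 769 signal was lower with AA at the proximal side, with 1.16 and 1.24 against 1.499 in control between 131000001 and 132000000. It was higher with AA in the stretch from 137000001 to 138000000, with 0.667 and 0.646 against 0.506 in control. In that same stretch 786 had 0.821 and 0.860 with AA, against 0.710 in control.

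The edge at 130000000 did not coincide with a step in the values. Just outside it, the bin from 129900001 had 1.34 and 1.24 in 769 AA, against 1.04 in 769 control, and the bin from 129800001 had 0.113 and 0.108 against 0.204. Just inside it, the bin from 130000001 had 0.874 and 1.33 in 769 AA against 1.49 in 769 control, and the bin from 130100001 had 1.71 and 2.02 against 4.88. The first bins inside the edge were thus lower with AA than the control in 769.

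**Figure D2:**
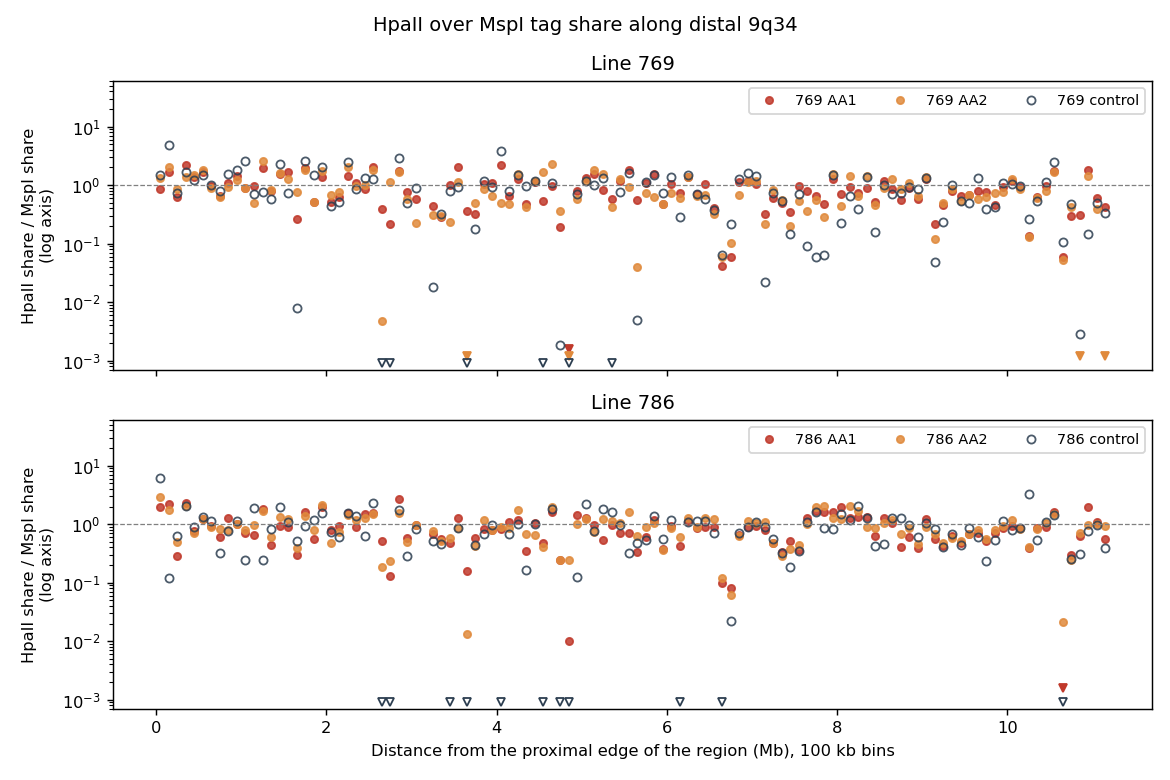
Relative HpaII signal (log axis) in the 111 bins of 100 kb, by distance in Mb from the proximal edge of the region, in 769 (top) and 786 (bottom); filled points are AA samples, open points controls, and triangles at the bottom are bins with no HpaII tag. The 769 control has 17 bins under 0.1, against 4 and 8 in the 769 AA samples.

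Counted by bins, 769 did not lean to one side. Both AA samples lay above the control of 769 in 43 of 111 bins (38.1% of all bins tested genome-wide), and both lay below it in 40 bins (27.8% genome-wide). In the other 28 bins the control lay between them or was matched. These counts come from the contrast that chose the region and are read no further. Among the 87 bins in which all 6 HpaII libraries reached 10 tags, 33 were above (36.6% of such bins genome-wide), 33 below (39.0% genome-wide) and 21 mixed, and the median log2 difference of AA over control was -0.0094, beside -0.0031 over 4384 such bins genome-wide. In 786, which the choice did not use, 54 of 111 bins had both AA samples above the control (57.6% genome-wide) and 37 had both below (24.9% genome-wide). In the 87 deeper bins it was 34 above (27.6% genome-wide) and 35 below (50.2% genome-wide). The median log2 difference was 0.034, beside -0.20 genome-wide. A bin passes this filter only with 10 tags in the shallow 786 control, which favours bins high in that control and lowers AA over control. It kept 87 of 111 bins here but 4384 of 15623 genome-wide, so the 2 sets are not alike and their difference is read no further.

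The bins ranked highest by AA over control in 769 had little HpaII signal in its control, which such a ranking by itself favours. The 6 bins with the highest AA signal relative to control were picked on that value among those 87. Their control signals ran only to 0.147, while those of AA sample 1 were at least 0.322 and those of AA sample 2 at least 0.217. The bin from 133200001 had 479 and 159 HpaII tags in 769 AA against 22 in control, or signals of 0.442 and 0.314 against 0.0181. In RefSeq's order it lies between the placed promoters of NCS1 and FUBP3, a stretch that holds HMCN2 and ASS1, the argininosuccinate synthase of the urea cycle. Its 786 signals were 0.681 and 0.758 with AA against 0.505 in control.

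Of these 6 bins, 4 came from 1 gene neighbourhood. The bins from 137100001, 137600001, 137700001 and 137800001 lie between the placed promoters of WDR5-DT and OLFM1. In that stretch RefSeq orders RXRA, a retinoid receptor, COL5A1, a collagen V chain, and FCN2 and FCN1, lectins of the complement system. None of these genes was placed in a given bin, so the raised bins are not tied to any of them. In the 769 control 1 site held 75.7%, 72.4%, 90.3% and 41.1% of the HpaII tags of these bins, in that order. The bin from 137100001 had 0.322 and 0.217 in 769 AA, against 0.0218 in 769 control. The bin from 137700001 had 0.641 and 0.566, against 0.0590. The other 2 had 0.807 and 0.367 against 0.0916, and 0.474 and 0.290 against 0.0634. The 769 AA signals were 6.02 to 12.4 times the control in these 4 bins, and still below the genome mean of 1 in all 3 samples of 769. The neighbourhood did not move as a whole. The 4 bins between them, starting at 137200001, 137300001, 137400001 and 137500001, had 769 AA signals of 0.993, 0.986, 1.84 and 1.07 times the control.

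In 786 these 4 picked bins had signals of at least 0.801 with and without AA. The 4 bins between them had 0.189 to 0.562 in the samples of 786. The picked bins had to pass the filter on HpaII tags, which favours bins high in the 786 control. Of the bins between them, only that from 137400001 failed it, with 9 tags in the 786 control. The contrast of low 769 and high 786 control signals in the picked bins is therefore partly fixed by the choice, and is read no further. The bin from 137700001 had 1.69 and 1.99 in 786 AA, against 1.61 in 786 control. The bin from 137100001 had 0.801 and 1.07, against 0.887. The bin from 137600001 had 1.28 and 1.02, against 1.09, and that from 137800001 had 1.60 and 2.02, against 0.860. None of the 4 was called in 786 (edgeR, adjusted p = 0.354 to 0.913). The last of the 6, from 140900001 beyond the promoter of ARRDC1-AS1, where RefSeq has EHMT1, a histone H3 methyltransferase, and the calcium channel gene CACNA1B, had 1.81 and 1.41 in 769 AA against 0.147 in control. In 786 it had 1.96 and 0.979 with AA, against 0.761.

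**Figure D3:**
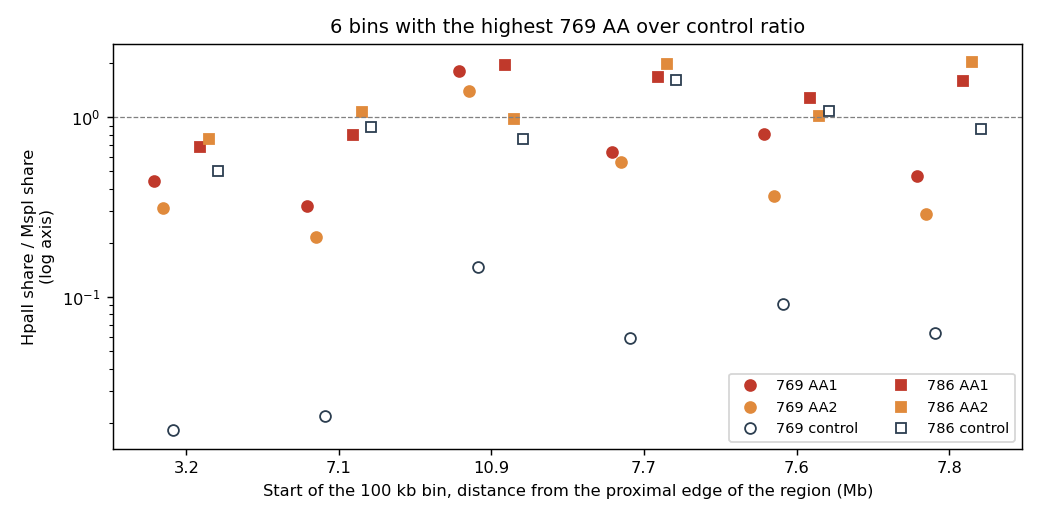
Relative HpaII signal (log axis) in the 6 bins of 100 kb with the highest AA signal relative to control in 769, 1 point per DNA sample, labelled by distance from the proximal edge. The 769 controls (open circles) lie between 0.0181 and 0.147, while the 786 controls (open squares) lie between 0.505 and 1.61. The ranking favours bins with a low 769 control, and the filter on HpaII tags favours bins with a high 786 control. The contrast between the controls is therefore partly fixed by the choice of bins.

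Further bins had no tag in the 769 control at all. The bin from 135300001 had 341 and 128 HpaII tags in 769 AA against 0 in control, at least 104-fold higher relative to MspI when the control is set to a floor of 3 tags. It lies before the promoter of GTF3C4, a subunit of a polymerase III factor. In 786 it had 0.976 and 1.15 with AA against 1.59 in control. The bin from 134500001 had 107 and 91 tags against 0, at least 95.9-fold higher, and that from 132600001 had 201 and 1 against 0, so this one rested on AA sample 1. In 786 the bin from 134500001 had 394 and 86 tags with AA against 0 in control, and that from 132600001 had 325 and 66 against 0.

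At the other end, 4 bins had the lowest AA signal relative to control in 769. The bin from 131800001, which holds the promoter of PTPA, an activator of protein phosphatase 2A, had 0.521 and 0.522 in 769 AA against 1.49 in control. That from 133000001 had 0.574 and 0.226, against 0.908. The bin from 139600001 had 0.781 and 0.582, against 1.33, and that from 140200001 had 0.133 and 0.129, against 0.264. Their AA signals were 0.351 to 0.514 of the control, a smaller fold change than in the 6 raised bins.

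The test that the choice of the region did not use was AA against control in 786. It was fitted with edgeR's quasi-likelihood test over all 12 libraries, HpaII relative to MspI, with p-values adjusted over 15623 bins genome-wide. In the region 2 of 111 bins rose (0.122% of bins tested genome-wide were called higher) and 1 fell (0.262% were called lower). At an unadjusted p under 0.05 there were 17. The genome-wide share at that threshold is not given here, so this count is read no further. The fitted median of the region was 0.22 (log2), beside 0.99 over all bins, both including bins with 0 control tags. In the 87 deeper bins it was 0.094, beside -0.17, with the same limit that the filter selects on the 786 control. With 1 control per line, the spread rests on 2 residual degrees of freedom and on the 769 libraries too.

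The first rise was in the bin from 136100001, between the placed promoters of RALGDS, an exchange factor of Ral GTPases, and SURF6, a nucleolar protein gene. RefSeq has GBGT1 and OBP2B between these promoters, but that stretch is wider than the bin, and neither gene was placed inside the bin. The bin had 981 and 534 HpaII tags in 786 AA, against 0 in 786 control. Against a floor of 3 tags this is at least 6.24-fold higher (edgeR, adjusted p = 0.0193). In 769 its signals were 0.722 and 0.603 with AA, against 0.289 in control. The call was lost without AA sample 1 of 769 (edgeR, adjusted p = 0.0860) and in the 786 samples alone (adjusted p = 0.0640). The second rise, in the bin from 130100001 with the promoter of the zinc finger gene ZNF79, had 1456 and 624 tags with AA against 2 in control. The signals were 2.24 and 1.75 against 0.119, a ratio of 16.8 with a 95% Poisson interval of 4.66 to 139, and log2 4.13 ± 0.78 in the fit (SE; edgeR, adjusted p = 0.0391). It was lost without AA sample 1 of 769 (adjusted p = 0.105) and without AA sample 2 of 769 (adjusted p = 0.0685). In 769 the same bin was lower with AA, at 1.71 and 2.02 against 4.88.

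The fall was in the bin from 140200001, between the promoters of NRARP, a regulator of Notch signalling, and EXD3. It had 1837 and 896 HpaII tags in 786 AA, against 282 in 786 control, and signals of 0.398 and 0.401, against 3.23. The fitted log2 difference was -2.95 ± 0.30 (SE; edgeR, adjusted p = 0.000394). A single CCGG site, at 140263381, held 82.3% of the control's tags in this bin. That site had 61 and 4 HpaII tags with AA against 232 in control, beside 1 and 4 MspI tags with AA against 8 in control. Without it the bin had 1776 and 892 tags with AA against 50 in control, signals of 0.385 and 0.400 against 0.574, and the fall was lost (log2 -0.48; edgeR, adjusted p = 0.594). Both AA samples then still lay below the control, within a difference that the fit did not separate from the spread. The setting was chosen after the data were seen.

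Further bins of 786 are given by their values, since none passed the threshold. The next on the higher side were from 131200001, with the promoter of ODF2, a centrosomal protein gene (1.80 and 1.68 in 786 AA, against 0.239 in control), from 136600001, with that of SARDH (0.0974 and 0.119, against 0), and from 139700001, with those of EDF1 and RABL6 (0.507 and 0.552, against 0.234). Their adjusted p by edgeR was 0.0883 to 0.155. On the lower side were the bins from 131100001, with the promoter of the fatty acid transporter gene SLC27A4 (0.646 and 0.976, against 1.87), 138700001 (0.401 and 0.684, against 1.27), 135000001 (1.27 and 1.24, against 2.21) and 131400001, with those of SET and ZDHHC12 (0.917 and 1.30, against 1.96). Their adjusted p by edgeR was 0.348 to 0.472.

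In windows of 10 kb, 619 of 1072 had enough tags to be tested among 28763 genome-wide. In 786, 1 window fell (0.0869% were called lower genome-wide) and 0 rose (0.00348%), by edgeR. By DESeq2 there were 2 calls, both lower (0.424% genome-wide by that tool). At an unadjusted p under 0.05 in either direction there were 71, a count without its genome-wide share and read no further. The window called by edgeR was that from 140260001 with the same site. It had 305 and 138 HpaII tags with AA against 237 in control (log2 -5.30 ± 0.61 SE; edgeR, adjusted p = 0.00177). Without that site the log2 difference was 0.076 (edgeR, adjusted p = 0.992). The next windows by p had hardly a tag in the control. That from 130160001 had 678 and 317 in 786 AA against 0 in control, that from 132420001 had 1047 and 398 against 0, and that from 138610001 had 861 and 402 against 0. The window from 140350001 had 906 and 248 with AA against 1 in control, a ratio of 16.8 with a 95% Poisson interval of 3.01 to 662. Their adjusted p by edgeR was 0.129 to 0.180.

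In 769 the windows were ranked by AA over control, which by itself favours windows with a low control at the top. The window from 138650001, between MRPS2 and UBAC1, had 350 and 41 HpaII tags in 769 AA against 11 in 769 control, or signals of 1.11 and 0.453 against 0.0247. In 786 it had 1.69 and 1.62 with AA against 1.41 in control. The window from 130680001 had 0.835 and 1.90 in 769 AA against 0.157 in control, and that from 139290001 had 1.19 and 1.44 against 0.198. Those from 139020001 and 138230001 had 1.24 and 0.639 against 0.131, and 1.54 and 1.49 against 0.262. The lowest were from 139530001 (1.22 and 0.275 with AA, against 4.84), 131940001 (1.42 and 0.908, against 7.26) and 141040001 (0.550 and 0.199, against 2.14).

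At single sites, 332 of the 610 with enough MspI tags also had 10 HpaII tags in all and were tested. By edgeR 0 of them were called in 786 (0% higher and 0% lower genome-wide), and 0 by DESeq2. At an unadjusted p under 0.05 there were 30, a count without its genome-wide share and read no further. The 5 with the smallest p each had 0 tags in the 786 control. They were at 130330838 (478 and 234 tags with AA), 131218837 (425 and 241), 140042211 (337 and 91), 139622560 (405 and 92) and 133047503 (410 and 128), all with an adjusted p by edgeR of 0.589. Only 4 sites of the region reached 10 HpaII tags in all 6 DNA samples, so the highest and lowest of 769 are drawn from these 4. The site at 131315242 had 5.40 and 3.15 in 769 AA against 0.863 in control, and that at 140099851 had 2.74 and 4.55 against 1.42. The other 2 differed little, at 4.22 and 4.70 against 4.60 (138986078) and 2.53 and 3.71 against 3.25 (130478018).

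Most placed promoters had more HpaII signal than the genome mean in both lines. Over the 391 listed sites of all 78 promoters, or 2.03% of the sites of the region, the pooled signal was 2.50 and 2.64 in 769 AA against 3.36 in 769 control. In 786 it was 2.99 and 2.54 with AA, against 2.47 in control. As shares, these values do not show whether HpaII cut promoters less or more with AA. Among the 35 with enough MspI tags, 30 had a median signal over the 6 samples above 1. In 769, 9 of the 35 had both AA samples above the control, 18 had both below and 8 were mixed. In 786, 16 had both above, 7 both below and 12 were mixed, with 11 at 0 tags in the control. These counts were not made for promoters genome-wide, so they are not read as particular to the region. Placement needs CCGG-rich promoters, and dense sites over all nuclear sites also had signals above 1. At 8 to 15 sites per 1 kb these were 1.82 and 1.73 in 769 AA against 1.99 in 769 control. At 16 or more they were 2.66 and 2.51 against 3.95. These are shares of few tags, since the 78 promoters together had 235 HpaII tags in the 786 control.

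The promoters printed above show how few sites carry such values. LRRC8A had 142 and 67 HpaII tags in 769 AA against 2 in 769 control, or signals of 2.86 and 6.24 against 0.0348. Its 4 sites had 7, 40, 18 and 77 tags in AA sample 1, in the order of the gene, 0, 17, 26 and 24 in AA sample 2, and 0, 0, 1 and 1 in the control, so the difference lay over several sites. In 786 the promoter had 1.78 and 11.9 with AA against 9.17 in control. TOR2A had 152 and 25 tags in 769 AA against 6 in control, of which 116 and 25 against 6 lay at its first CCGG, 178 bases before the start. Its 786 counts were 376 and 57 with AA against 0. ABL1 had 23 and 32 tags in 769 AA against 4 in control, and 305 and 36 in 786 AA against 0 in control. Of the 769 AA tags, 19 and 25 lay at its last site, 15 bases after the start, which is outside the printed stretch.

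GPSM1 was the promoter with the lowest median signal of the 35, at 0.0218. It had 37 and 25 tags in 769 AA against 1 in control, all 37 at the site after the start and all 25 at a site 145 bases before it, so the AA samples did not share a site. In 786 it had 0 tags in all 3 samples, beside 67 and 100 MspI tags with AA and 95 in control. LRSAM1 was the reverse, with 165 and 112 tags in 769 AA against 538 in 769 control. A site 79 bases before the start, held 469 of the 538 control tags, beside 50 and 3 with AA. The MspI tags of this promoter were few, at 32 and 27 in 769 AA against 12 in control, so its control signal of 101 rests on them.

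Other promoters with the lowest AA signal relative to control in 769 were LOC124902318 (3.98 and 2.61 in 769 AA, against 38.0), UBAC1, a ubiquitin ligase subunit gene (2.99 and 4.34, against 23.8), and PTPA (0.900 and 0.137, against 3.32). In 786 these had 10.8 and 6.01 against 9.22, 5.60 and 1.61 against 4.58, and 0.917 and 13.9 against 0. The highest medians belonged to LOC124902318 (7.61), ZMYND19 (6.60), ARRDC1-AS1 (5.41), BRD3, a reader of acetylated histones (5.06), and LRSAM1 (5.01). After GPSM1, the lowest belonged to LOC102724193 (0.624), RABL6 (0.888), PTPA (0.909) and SARDH, a mitochondrial sarcosine dehydrogenase (0.948). With the smallest site p in 786 came NUP188, a nuclear pore gene, at 1.97 and 2.57 with AA against 0.329 in control, where 516 and 268 tags stood against 1. UCK1, a uridine-cytidine kinase gene, had 4.82 and 2.73 against 4.85. PTGES2, a prostaglandin synthase gene, had 3.70 and 2.18 against 2.08, and the neighbouring PTGES2-DT, which overlaps it, had 6.29 and 2.31 against 0.714. The smallest unadjusted p by edgeR at a site was 0.0205 in NUP188, 0.0310 in UCK1, 0.167 in PTGES2 and 0.206 in PTGES2-DT. None of these sites was called after adjustment, and only promoters with a tested site could be ranked this way.

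**Figure D4:**
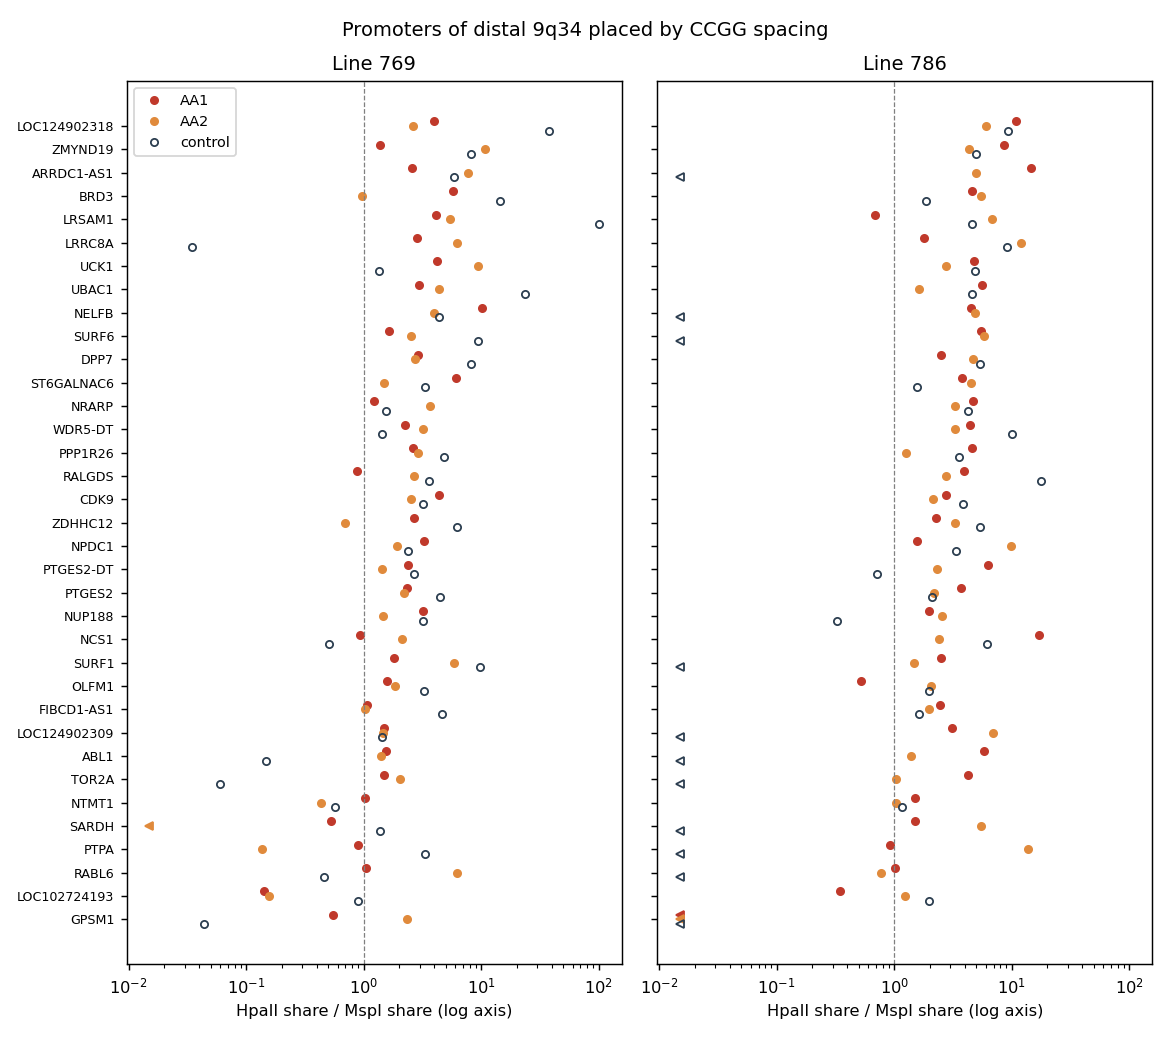
Relative HpaII signal (log axis) of the 35 placed promoters that reached 10 MspI tags in all 6 DNA samples, in 769 (left) and 786 (right), ordered by the median over 6 samples; triangles at the left edge are samples with no HpaII tag. In 769 the open circles of LRRC8A, TOR2A, ABL1 and GPSM1 stand to the left of the AA samples, at 0.0348 to 0.148, and in 786 the control is at 0 in 11 promoters.

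MspI tags, which do not depend on modification, differed between the lines in the region. They made up 3.02 ± 0.0629% of nuclear MspI tags in 786 and 2.58 ± 0.0864% in 769 (SD, n = 3 each), a fold of 1.17. The 3 samples of 786 lay above all 3 of 769, and an exact two-sided permutation test gave p = 0.1, the smallest that 3 against 3 can give. By bins of 100 kb, 108 of 111 had a log2 ratio of 786 over 769 above 0, with a median of 0.26, beside 0.0027 over 16726 bins genome-wide. The bins share their libraries, so their number adds no replicates. By edgeR 2 of the 111 were called higher in 786 (1.97% genome-wide) and 0 lower (1.72% genome-wide). By DESeq2 8 were called higher (3.72% genome-wide by that tool). At an unadjusted p under 0.05 there were 31, a count without its genome-wide share and read no further. The 2 called by edgeR were the bin from 138900001, with the promoter of the transcription factor gene NACC2 (log2 0.46 ± 0.12 SE; edgeR, adjusted p = 0.0246), and that from 132500001, between ASB6 and FNBP1 (log2 0.62 ± 0.17 SE; edgeR, adjusted p = 0.0337). None was called when any DNA sample other than AA sample 1 of 786 was left out. In bins of 1 Mb, 6 of 12 were called higher in 786, beside 11.7% genome-wide. The HpaII signal above is divided by the MspI share of the same DNA sample, and amount of DNA and recovery of tags cannot be told apart in these counts.

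**Figure D5:**
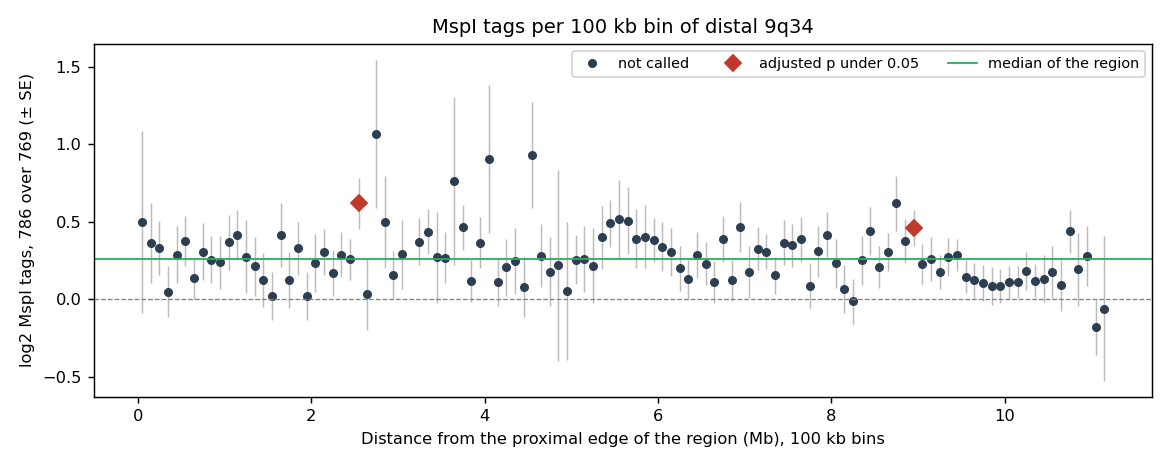
Log2 ratio of MspI tags of 786 over 769 in 111 bins of 100 kb, with SE from edgeR, by distance in Mb from the proximal edge; the green line is the median of 0.26 and diamonds are the 2 called bins. All but 3 bins lie above 0.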

How the data were processed

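HELP-tagging libraries of 6 DNA samples from 2 ccRCC lines were used, 1 HpaII and 1 MspI library each. Per the labels' protocols, PCR ran for 18 cycles; no molecular identifier is described. The deposited files hold expected counts of tags per CCGG site (left, right and summed). Their sums equal the totals stated in the files, so no normalization by the authors shows. Coordinates are hg19 (submitters' processing notes). Which aligner made them is not known from the sources used here. Library totals were 189704 to 12442031 tags.

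Counts at chromosomes 1 to 22 and X were summed in bins of 100 kb and windows of 10 kb, and rounded. Features were tested where every MspI library had 10 tags or more and the HpaII libraries together 10 or more. The test was edgeR 4.0.16 (R 4.3.3; quasi-likelihood; DNA sample, enzyme, enzyme by line, enzyme by AA within line; TMM within enzyme; Benjamini-Hochberg; calls at adjusted p under 0.05), with DESeq2 1.42.0 as an alternative. It was tried on simulated data, with an outcome that is not given here and is not used as support. Changes were planted there only in bins with expected tags in the 786 control, so the trial does not cover bins with 0 control tags. The AA contrast of 769, which chose the region, was a term of the main fit, and its p-values and calls are not used. MspI tags were compared between lines with line and treatment terms. Folds against 0 tags use a floor of 3 tags; ratios to 1 to 3 tags have exact Poisson intervals at 95%. Named features are the extremes of 769 where no HpaII library fell under 10 tags, the bins with 0 in the 769 control, the called ones and those next by p in 786, the bins at the edge, and the extreme promoters. The region and the lists were chosen with earlier results of these data known. Sample numbers were not used as pairs in the main fit. MspI deviations of same-labelled samples correlated at r = -0.039, 0.0040 and 0.029. MspI does not depend on modification, so this cannot show whether the numbers share a dose or time. RefSeq (GRCh38.p14) gave promoter sequences, names and gene order. Python 3.11.15, numpy 2.4.6, pandas 2.3.3, scipy 1.17.1 and matplotlib 3.10.9 did the rest.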

Additional observations from a re-analysis of the deposited data

Results flagged for a closer look

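The 12 features below had both AA samples above the control in one line and both below it in the other. The difference between the lines was not tested, and no cause was tested. In bins of 100 kb, the log2 difference of AA over control was 4.07 in 786 against -1.39 in 769 in the bin from 130100001, and -0.82 against 0.11 in that from 135000001. It was 0.20 in 786 against -1.18 in 769 in the bin from 133000001, and 0.31 against -0.96 in that from 139600001. In the bin from 136600001 the AA samples of 786 were at least 1.83-fold higher than a control at 0 tags, against -0.33 (log2) in 769. In the bin from 135300001 it was -0.58 (log2) in 786, while in 769 AA was at least 104-fold higher than a control at 0 tags.

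In windows of 10 kb, the log2 difference was -0.69 in 786 against 3.12 in 769 from 130680001, -0.55 against 2.83 from 139020001, and -1.52 against 2.54 from 138230001. In the windows from 130160001 and 132420001 AA was at least 6.59-fold and 4.83-fold higher in 786, against -1.29 and -1.76 (log2) in 769. At the site at 139622560 AA was at least 2.58-fold higher in 786, against -4.20 (log2) in 769. These features were named for extreme values in one line, and the 786 control HpaII library holds 4147 tags over the region, so 0 to 77 tags of that control stand behind each of these bins.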

How the results depend on the processing

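The 3 calls of 786 in bins of 100 kb became 5 without a low count filter, 1 where no HpaII library had under 10 tags, 1 in the 786 samples alone and 1 in bins of 1 Mb, and ranged from 1 to 3 when DNA samples were left out in turn. The 1 call in windows of 10 kb became 2 by DESeq2, 4 after thinning, 6 with HpaII alone and 0 without the 1 site that dominates the 786 control, and ranged from 1 to 5 over the samples left out; there the log2 difference of the window from 140260001 turned to 0.076. At sites the count of 0 ranged from 0 to 1. The 2 MspI calls became 8 by DESeq2 and 6 in bins of 1 Mb, and ranged from 0 to 2. The cause was not tested. With a replicate block, which treats the sample numbers as shared between the lines, 786 had 6 calls in bins, 6 in windows and 0 at sites, and MspI had 2. Whether the numbers are so shared is not known from the labels. Without a DNA sample term 786 had 2, 1 and 0 calls.

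The 769 fold of the region, 1.03, was 0.127 scaled to mitochondrial tags, a scaling that multiplies every region of a library by the same factor. The fold was 1.06 with sites capped at the 99th percentile, 0.776 at sites with at least 10 MspI tags, 1.04 for whole-number counts and 1.05 thinned. It was 1.08 with the edge moved towards the telomere and 1.01 with it moved away. The 786 fold, 0.979, was 0.835 counting sites with a tag, 0.944 capped, 1.28 at sites with at least 10 MspI tags and 0.945 with the edge moved towards the telomere. The sparse-to-dense fold was 4.53 thinned in 769 and 1.38 in 786 without the bin of that site. Of the called bins, that from 136100001 lost its call in 3 settings and that from 130100001 in 4 (adjusted p by edgeR, or DESeq2 for 1 of them, 0.0554 to 0.105). The 4147 tags of the 786 control over 111 bins limit what 786 can show.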
